A study of Sus scrofa with 8 samples.

Results

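The genes described here drive a cell from late G2 through mitosis to the separation of the daughter cells. They were chosen as a list of 38 symbols, and 37 of them were matched to identifiers among the 25880 pig genes counted. CCNA2 (cyclin A2) was not matched and was not analysed here. MKI67 and AURKA were named by their position and the other 35 members by identifier. The question the list bears on is whether olfactory epithelium without CFTR, the epithelial anion channel lost in cystic fibrosis, holds more or fewer transcripts of dividing cells, since the series title names progenitor proliferation.

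RNA came from dissected, snap-frozen olfactory neuroepithelium of newborn piglets. The wild-type group comprised piglets 5, 9, 12 and 23, and the CFTR knock-out group, also described as CFTR-null, comprised piglets 6, 18, 20 and 21. Each library was 1 piglet, and the labels name no treatment, engineered allele, litter, sex or batch. Library totals ranged from 30836904 to 43253395 counts. CFTR itself was 34.0 to 56.5 CPM (read counts scaled to a common library size) in wild-type and 5.24 to 8.37 CPM in knockout libraries, with no overlap, and its log2 fold change was -2.56 ± 0.21 (SE), with an adjusted p of 0.0121 by edgeR. The adjusted p was 0.122 without knockout piglet 6 and 0.0544 without knockout piglet 20.

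The olfactory epithelium is renewed throughout life. Globose basal cells divide and give rise to immature and then mature sensory neurons, while horizontal basal cells form a reserve that divides mainly after injury. Transcripts of the mitotic programme accumulate in G2 under the transcription factors FOXM1 and B-Myb, and most of their proteins are destroyed after division, so that resting cells hold little of them. The same genes are used by every dividing cell, including those of vessels, connective tissue, bone and blood. In bulk tissue, fewer dividing cells and less RNA per dividing cell cannot be told apart.

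All 37 genes passed the filter on low counts in the fit across 17175 genes. They were well covered, with 183 to 6128 reads per gene and library. On a scale that also corrects for gene length (TPM), BUB3 stood highest at 105 ± 7.43 TPM in wild-type libraries (SD, n = 4). BUB3 is a checkpoint protein that is also made by cells that do not divide. AURKB followed at 53.5 ± 3.54 TPM and the ubiquitin-conjugating enzyme UBE2C at 50.8 ± 7.52 TPM, which did not differ beyond their spread. TOP2A was 37.8 ± 11.1 TPM, MKI67 18.9 ± 4.67 TPM and CCNB1 14.4 ± 2.54 TPM. The lowest levels were those of AURKA, 3.23 ± 0.519 TPM, and FOXM1, 2.95 ± 0.698 TPM, whose ranges overlapped.

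No G2 or mitosis gene differed between the genotypes past the threshold, an adjusted p under 0.05 in edgeR's quasi-likelihood test with Benjamini-Hochberg adjustment over all genes tested. Of the 37 genes, 0 were called, against 0.00582% of all genes tested, a share that is CFTR alone. The smallest adjusted p was 0.413, for NCAPG. At an unadjusted p under 0.05, 1 gene was lower and 0 were higher, against 5.80% and 5.40% of all genes. DESeq2 called 0 of the 37 (1.28% of all genes), and limma with sample quality weights called 0 (0.0640% of all genes, 0.0466% lower). In none of the 37 did the knockout and wild-type libraries separate without overlap, whereas 5.80% of all genes tested did so, 3.35% with the knockout below and 2.45% with it above.

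The intervals give, gene by gene, the range of difference left by the edgeR fit to all libraries. They are not joint bounds over the list. The 95% interval of the log2 fold change lay within 2-fold in either direction for all 37 genes, against 74.8% of all genes tested. It lay within 1.5-fold for 31 of them, against 52.2% of all genes. Over the list, the lowest bound was -0.74, for the checkpoint kinase TTK, and the highest was 0.74, for the cytokinesis protein ANLN. Point estimates lay on the lower side in 32 of 37 genes, with a median log2 fold change of -0.11. Among all genes tested 48.4% were below 0 and the median was 0.01. Its size varied with the libraries and the fit: without wild-type piglet 5, 22 of 37 were below 0 and the median was -0.04. Y-linked reads (EIF1AY and KDM5D) were present in wild-type piglets 9 (1388 reads) and 12 (1640 reads) and at 0 in the other 6 libraries, all 4 knockouts among them. With these reads as a second factor, 34 of 37 were below 0 and the median was -0.20. Because no knockout held such reads, the genotype difference in that fit rested on wild-type piglets 5 and 23 against the knockouts.

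**Figure D1:**
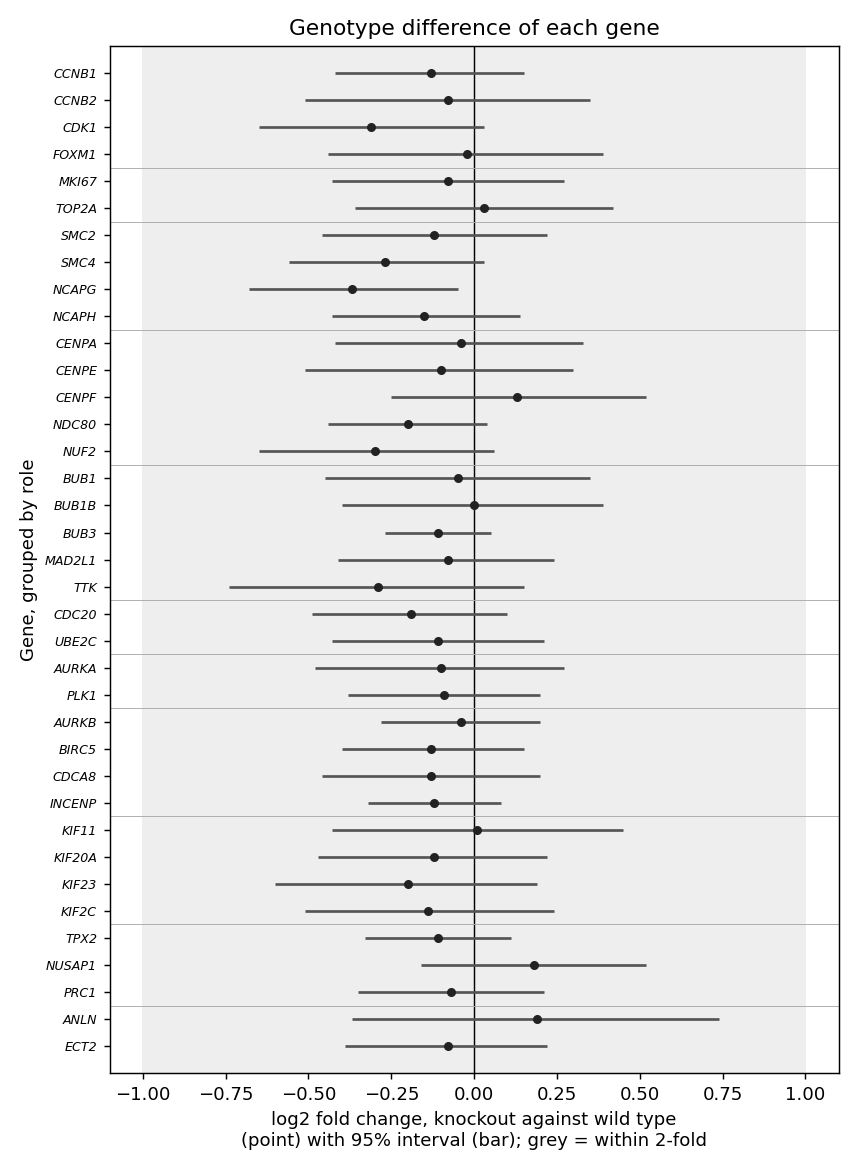
Log2 fold change of each of the 37 genes (knockout against wild type, x axis) with its 95% interval from the edgeR fit, genes grouped by role on the y axis and separated by grey lines. Every interval stays inside the grey band of 2-fold in either direction, and 36 of the 37 intervals include 0, the exception being NCAPG (-0.68 to -0.05).

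MKI67, whose protein coats mitotic chromosomes and is the standard stain for dividing cells, was 108, 70.2, 74.6 and 68.9 CPM in wild-type piglets 5, 9, 12 and 23. In knockout piglets 6, 18, 20 and 21 it was 65.6, 85.1, 80.6 and 72.5 CPM. Apart from wild-type piglet 5, which was far above the rest, the knockout values spanned the wild-type ones. This gave -0.08 ± 0.15 on the log2 scale (SE), an adjusted p of 0.846 by edgeR and a 95% interval of -0.43 to 0.27. Without wild-type piglet 5 it was 0.08.

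TOP2A, the topoisomerase that untangles sister chromatids, was 147, 87.1, 102 and 84.4 CPM in wild-type and 105, 112, 118 and 95.2 CPM in knockout piglets. The groups overlapped, and wild-type piglet 5 was again the highest of the 8 libraries. Its log2 difference was 0.03 ± 0.17 (edgeR, adjusted p = 0.948). Without wild-type piglet 5 it was 0.23, with an unadjusted p under 0.05 and an adjusted p of 0.381.

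Cyclin B1 (CCNB1), which activates CDK1 at the entry to mitosis, was 21.7, 18.6, 15.1 and 16.3 CPM in wild-type and 17.0, 17.1, 15.5 and 15.7 CPM in knockout piglets. The knockout values were tightly grouped within the wild-type range, at a log2 difference of -0.13 ± 0.13 (edgeR, adjusted p = 0.671). CDK1, its kinase, was 16.2, 12.5, 10.2 and 12.6 CPM in wild-type and 10.8, 11.1, 9.96 and 9.74 CPM in knockout piglets. Wild-type piglet 12 lay among the knockout values and the other wild-type piglets above them, and the log2 fold change was -0.31 ± 0.15 (edgeR adjusted p = 0.462, 95% interval -0.65 to 0.03). Without wild-type piglet 5 the difference was -0.19 for CDK1 and -0.04 for CCNB1. CCNB2, a second B-type cyclin, was 5.80 to 9.52 CPM in wild-type and 5.92 to 7.11 CPM in knockout libraries. FOXM1, the transcription factor of this programme, was 4.82 to 8 and 5.86 to 6.70 CPM. Their log2 fold changes were -0.08 ± 0.19 and -0.02 ± 0.18, and neither passed the test.

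**Figure D2:**
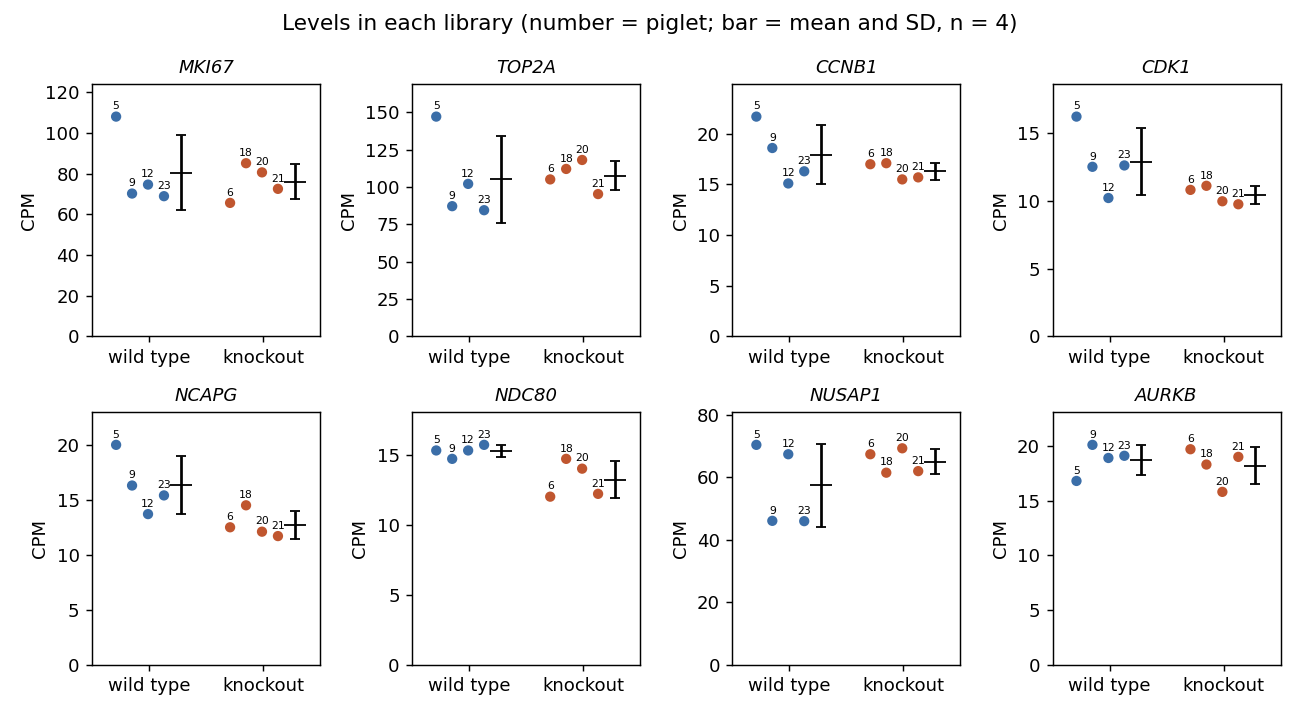
CPM of 8 of the genes in each library, with the piglet number above each point and the mean and SD of each group (n = 4) as a bar beside it; every y axis starts at 0. Wild-type piglet 5 stands highest in MKI67, TOP2A, CCNB1, CDK1, NCAPG and NUSAP1 but not in NDC80 or AURKB, and the groups overlap in all 8 panels.

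Condensin, the ring complex that compacts chromosomes, had the lowest median log2 difference of the roles, -0.21 over its 4 genes and -0.11 without wild-type piglet 5. NCAPG, a regulatory subunit of condensin I, was 20, 16.3, 13.7 and 15.4 CPM in wild-type and 12.5, 14.5, 12.1 and 11.7 CPM in knockout piglets. The groups overlapped only through knockout piglet 18, which lay above wild-type piglet 12. The log2 fold change was -0.37 ± 0.14 (unadjusted p = 0.0280, edgeR adjusted p = 0.413). SMC4, a core ATPase of the ring, was 76.1, 55.9, 50.3 and 54.8 CPM in wild-type and 49, 50.9, 52.6 and 44.4 CPM in knockout piglets (-0.27 ± 0.13, edgeR adjusted p = 0.463, and -0.13 without wild-type piglet 5). SMC2, its partner, had -0.12 ± 0.15 and NCAPH, the kleisin that closes the ring, had -0.15 ± 0.12. Knockout piglet 21 had the lowest value of the 8 libraries in all 4 genes, where it was lowest in 8.25% of all genes tested, and wild-type piglet 5 the highest in all 4.

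Kinetochore genes, whose proteins couple chromosomes to spindle microtubules, had estimates on both sides of 0. NDC80, the microtubule-binding subunit, was 15.3, 14.7, 15.3 and 15.7 CPM in wild-type and 12, 14.7, 14 and 12.2 CPM in knockout piglets. The highest knockout value and the lowest wild-type value were level, and the log2 fold change was -0.20 ± 0.11 (edgeR adjusted p = 0.482). NUF2, the direct partner of NDC80, was 17.4, 11.8, 12 and 15.8 CPM in wild-type and 11.1, 13.2, 10.5 and 11.6 CPM in knockout piglets (-0.30 ± 0.16, edgeR adjusted p = 0.484). The 2 subunits thus differed in which libraries were high: NUF2 was raised in wild-type piglets 5 and 23, while NDC80 was nearly even over the wild-type group. CENPF, a large coiled-coil protein of the outer kinetochore, lay on the other side of 0. It was 62.6, 36.8, 47.9 and 39.9 CPM in wild-type and 47.3, 60.4, 52.5 and 45.2 CPM in knockout piglets (0.13 ± 0.17, edgeR adjusted p = 0.759). CENPE, a kinetochore motor, had -0.10 ± 0.18 and CENPA, the histone that marks centromeres, -0.04 ± 0.17.

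Spindle checkpoint genes, which hold anaphase until all chromosomes are attached, had a median of -0.08 over 5 genes. BUB3 was the most even of the 37 genes, at 132, 145, 122 and 138 CPM in wild-type and 128, 123, 122 and 124 CPM in knockout piglets (-0.11 ± 0.07, edgeR adjusted p = 0.534). The kinase TTK varied more, from 10.5 to 17.2 CPM in wild-type and from 8.04 to 12 CPM in knockout libraries (-0.29 ± 0.20, and -0.13 without wild-type piglet 5). Its lowest value was in knockout piglet 21 and its highest in wild-type piglet 5. BUB1, a checkpoint kinase, had -0.05 ± 0.18 and MAD2L1, the inhibitor of CDC20, -0.08 ± 0.14. For BUB1B, the BubR1 subunit of the same inhibitor, both group means were 13.2 CPM, with a 95% interval of -0.40 to 0.39.

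The genes that end mitosis and those of the spindle also overlapped between the genotypes. CDC20, which activates the anaphase-promoting complex, was 14.1 to 20.1 CPM in wild-type and 13.1 to 15.0 CPM in knockout libraries (-0.19 ± 0.13), and UBE2C, which works with that complex, had -0.11 ± 0.14. The mitotic kinases AURKA and PLK1 had -0.10 ± 0.17 and -0.09 ± 0.13. The kinesin motors KIF11, KIF20A, KIF23 and KIF2C, which separate spindle poles, build the midzone or depolymerise microtubules, ranged from -0.20 to 0.01. TPX2, a spindle assembly factor, had -0.11 ± 0.10 and PRC1, which bundles midzone microtubules, -0.07 ± 0.12. None of these passed the test.

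In the chromosomal passenger complex, which corrects faulty attachments and then positions the cleavage furrow, all 4 genes had estimates between -0.13 and -0.04. AURKB, its kinase, was 16.8, 20.1, 18.9 and 19.1 CPM in wild-type and 19.7, 18.3, 15.8 and 19.0 CPM in knockout piglets (-0.04 ± 0.11, edgeR adjusted p = 0.894). It was lower in wild-type piglet 5 than in the other wild-type libraries, unlike most of the list. INCENP, its scaffold, had -0.12 ± 0.09, BIRC5 (survivin) -0.13 ± 0.12 and CDCA8 (borealin) -0.13 ± 0.14. Summed over the complex, the level was 59.0 to 63.2 CPM in wild-type and 54.4 to 58.4 CPM in knockout libraries. This was the 1 role sum of 11 whose groups did not overlap, and it was not tested.

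The 5 genes with estimates above 0 were NUSAP1, ANLN, CENPF, TOP2A and KIF11. NUSAP1, a microtubule-bundling protein of the nucleolus and spindle, was 70.3, 46.0, 67.3 and 45.9 CPM in wild-type and 67.3, 61.4, 69.2 and 61.9 CPM in knockout piglets. Wild-type piglets 9 and 23 were low and the other 6 libraries lay between 61.4 and 70.3 CPM, at a log2 difference of 0.18 ± 0.15 (edgeR adjusted p = 0.636, and 0.09 without either low piglet in turn). ANLN, the anillin scaffold of the contractile ring, was 16.1, 7.94, 9.28 and 9.24 CPM in wild-type and 11.1, 16.2, 11.2 and 10 CPM in knockout piglets. It was high in wild-type piglet 5 and knockout piglet 18 and had 0.19 ± 0.25 (edgeR adjusted p = 0.765). KIF11, the motor that drives spindle poles apart, was 25.5, 14.6, 17.4 and 14.8 CPM in wild-type and 18.8, 21.1, 18 and 14.9 CPM in knockout piglets (0.01 ± 0.19, edgeR adjusted p = 0.988). ECT2, which activates the ring with anillin, had -0.08 ± 0.14.

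In most of the list 1 piglet stood above the others. Wild-type piglet 5 had the highest value of the 8 libraries in 30 of 37 genes, against 16.5% of all genes tested, and the lowest in 0 (16.1% of all genes). Of the other libraries, wild-type piglet 9 was highest in 4 genes (14.6% of all genes), knockout piglet 18 in 2 (15.8%), wild-type piglet 23 in 1 (11.1%) and wild-type piglet 12 in 0 (9.65%). The lowest value was in knockout piglet 21 for 11 genes (8.25% of all genes), knockout piglet 20 for 7 (13.6%), knockout piglet 6 for 5 (13.3%), wild-type piglet 23 for 6 (11.8%), wild-type piglet 12 for 5 (10.8%) and wild-type piglet 9 for 3 (15.5%). The level in wild-type piglet 5 was at least 1.2 times the median of the other 7 libraries in 29 of 37 genes, against 24.3% of all genes. The median of that ratio was 1.33 over the list and 1 over all genes, and it ranged from 0.884 for AURKB to 1.62 for TTK. Summed over the 37 genes, the level was 1187 CPM in wild-type piglet 5, and the next highest sum was that of knockout piglet 18 (986 CPM). The other 6 libraries lay between 865 and 931 CPM. The genes in which piglet 5 was not highest were AURKB, BUB3, INCENP, UBE2C, NDC80, CENPA and ANLN.

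**Figure D3:**
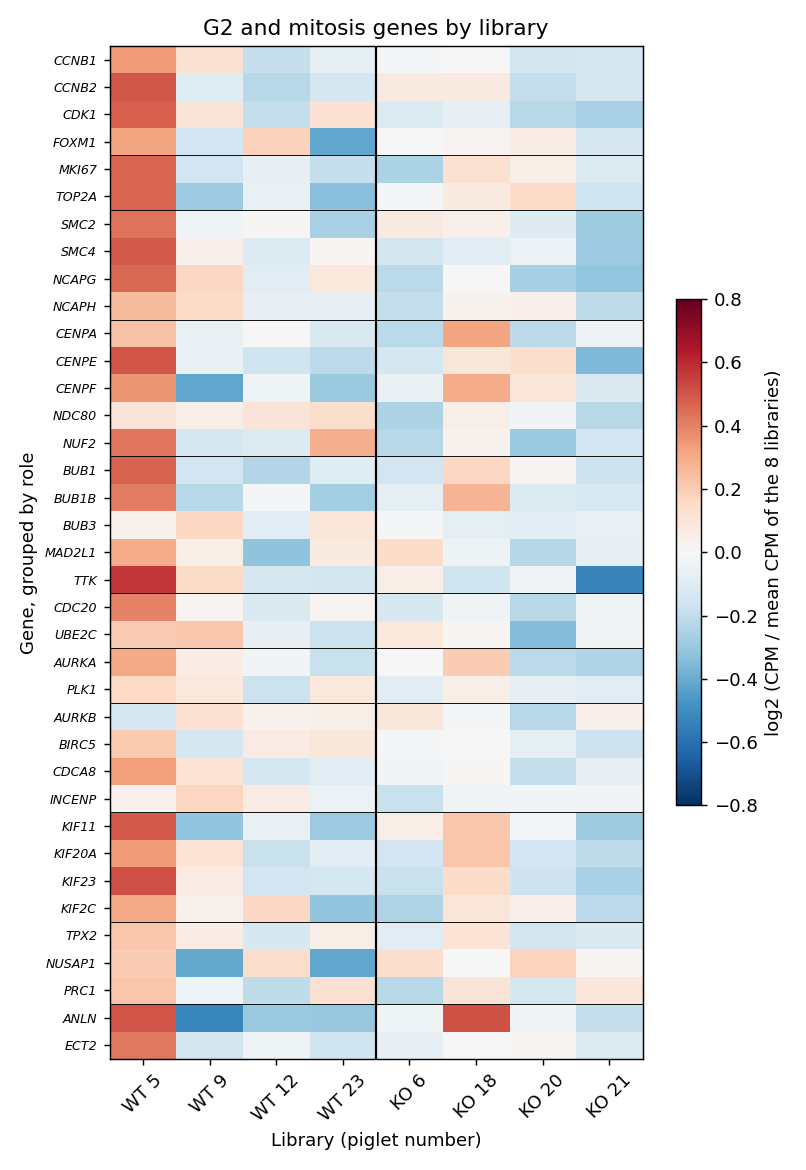
Heat map of log2 of each gene's CPM over its mean in the 8 libraries (colour), with libraries in columns (wild type left of the black line) and the 37 genes in rows by role. The column of wild-type piglet 5, highest in 30 of 37 rows, is red almost throughout, while the other columns mix red and blue.

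Without wild-type piglet 5, 3 genes had an unadjusted p under 0.05, all higher in the knockout: TOP2A (0.23), CENPF (0.30, adjusted p = 0.381) and ANLN (0.45, adjusted p = 0.375). With all libraries that set was NCAPG alone, lower in the knockout. Neither set passed the edgeR adjustment over all genes. Wild-type piglet 5 held the highest wild-type value of TOP2A, CENPF and ANLN, so leaving it out raised their estimates by construction. The share of all genes at that p without wild-type piglet 5 is not given here. With both wild-type piglet 5 and knockout piglet 18 left out, 24 of 37 genes were below 0 and the median was -0.09.

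Wild-type piglet 5 also differed in its cell type markers. All 7 endothelial markers tested were highest in it, and their sum was 429 CPM against 200 to 294 CPM in the other libraries (PECAM1, the junction protein of vessels, 160 against 71.9 to 114 CPM). Of 11 markers of mature olfactory neurons, 9 were lowest in it, with a sum of 4109 CPM against 5324 to 7528 CPM. Between genotypes, 10 of these 11 were above 0 in the knockout with a median of 0.37 (0.25 without wild-type piglet 5), 5 at an unadjusted p under 0.05 (5.40% of all genes were higher at that p, and 48.4% were below 0), and edgeR called 0. Their sum was 4109 to 6320 CPM in wild-type and 6402 to 7528 CPM in knockout libraries, without overlap. Gene by gene, 1 of the 11 lay higher in every knockout than in every wild-type library, against 2.45% of all genes. Knockout piglet 18, the second highest for the mitosis genes, summed to 27218 CPM for bone and cartilage markers against 616 to 3006 CPM elsewhere, and to 292 CPM for leukocyte markers against 79.2 to 114 CPM. Its sum of fibroblast markers was 5565 CPM and that of wild-type piglet 5 was 1642 CPM, against 576 to 1397 CPM in the remaining libraries. Of 5 red cell markers tested, 4 were above 0 with a median of 0.42, edgeR called 0, and HBB (beta globin) and ALAS2, the haem synthesis enzyme of erythroid cells, were higher at an unadjusted p under 0.05. Knockout piglet 18 had the highest erythroid sum, 301 CPM, against 40.1 to 143 CPM elsewhere. KLF1, the erythroid transcription factor, was 0 to 0.0481 CPM and AHSP, the chaperone of alpha globin, 0.0949 to 0.446 CPM, both too low to be tested. The leukocyte sum also did not overlap between genotypes, at 79.2 to 101 CPM in wild-type and 105 to 292 CPM in knockout libraries, though 0 of its 10 tested genes separated by themselves. The part of these other cell types in the levels of the mitosis genes was not tested.

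**Figure D4:**
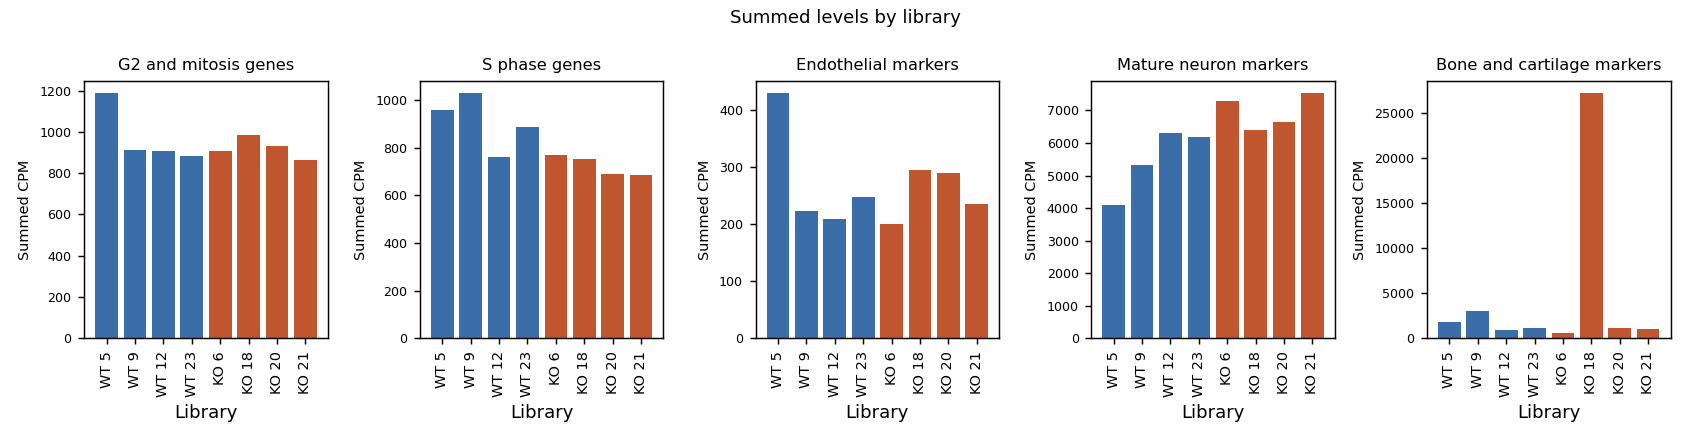
Summed CPM in each library (bars, wild type blue and knockout orange, each y axis from 0) of the G2 and mitosis genes, S phase genes, endothelial markers, mature neuron markers and bone and cartilage markers. Wild-type piglet 5 is highest for mitosis genes (1187 CPM) and endothelial markers (429 CPM) and lowest for neuron markers (4109 CPM), and knockout piglet 18 is highest in bone and cartilage markers (27218 CPM).

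Markers of globose basal cells and neuronal precursors did not follow that pattern. Their sum was 944 CPM in wild-type piglet 5 and 929 to 1044 CPM in the others. NEUROG1, the proneural factor of dividing precursors, was 13.2, 8.51, 8.87 and 10.1 CPM in wild-type and 12.3, 8.89, 9.39 and 7.92 CPM in knockout piglets, highest in wild-type piglet 5 but with knockout piglet 6 close to it. NEUROD1, which acts at the last division, was 17.6 to 22.8 CPM in wild-type and 18.5 to 25.2 CPM in knockout libraries. Of 14 such genes tested, 0 were called by edgeR, and 1 of them, PAX6, had an unadjusted p under 0.05 (-0.38 ± 0.09, edgeR adjusted p = 0.326); DESeq2 called it lower. SOX2 was not matched and was not analysed here. Horizontal basal markers were tested for 9 genes, of which edgeR called 0. NGFR had the smallest p (-1.20 ± 0.13, edgeR adjusted p = 0.0737), while TP63, the defining factor of these cells, had -0.23 ± 0.16. DESeq2 called NGFR lower (DESeq2 adjusted p = 1.35e-11), and limma called 1 gene of these 9 (limma adjusted p = 0.0107). Estimates of the 9 genes ranged from -1.55 to 0.45, with 6 below 0, 3 above 0 and a median of -0.18 (-0.10 without knockout piglet 18).

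Other genes of mitosis had estimates mostly below 0 as well. Of 48 further mitosis genes tested, edgeR called 0 and 40 were below 0, with a median of -0.14. At an unadjusted p under 0.05, 5 were lower (5.80% of all genes) and 0 higher (5.40%). The 5 were CDCA3, CKS2, KIFC1, NCAPD3 and PKMYT1. CKS2, a small CDK1-binding protein, was 19.1, 16.9, 10.1 and 16.6 CPM in wild-type and 9.11, 11.8, 8.73 and 8.91 CPM in knockout piglets (-0.70 ± 0.20, edgeR adjusted p = 0.359). PKMYT1, the kinase that restrains CDK1 in G2, was 1.95 to 2.69 CPM and 0.780 to 1.56 CPM (-0.88 ± 0.27, edgeR adjusted p = 0.372), without overlap between the groups, as 3.35% of all genes were with the knockout below. NCAPD3, of condensin II, had -0.30 ± 0.11. Wild-type piglet 5 was highest in 34 of the 48, and without it 28 were below 0, with a median of -0.06.

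Genes of S phase, the stage before G2, were nearly all below 0. Of 37 tested, 36 were below 0, with a median of -0.35 and edgeR calls in 0. At an unadjusted p under 0.05, 21 were lower and 0 higher, against 5.80% and 5.40% of all genes, and in 11 every knockout library lay below every wild-type library, against 3.35% of all genes. DESeq2 called 7 lower, E2F1, GINS1, MCM10, MCM2, MCM3, ORC1 and UHRF1, against 0.786% of all genes. UHRF1, which maintains DNA methylation behind the replication fork, was 39.6, 41.0, 28.6 and 36 CPM in wild-type and 26.8, 24.0, 23.3 and 24.1 CPM in knockout piglets (-0.57 ± 0.12, edgeR adjusted p = 0.326). MCM3, a subunit of the replicative helicase, had -0.86 ± 0.18 and MCM2 -0.72 ± 0.16. Here the highest library was wild-type piglet 9 in 18 genes and wild-type piglet 5 in 14, and the median was -0.25 without piglet 9 and -0.33 without piglet 5. Other lists also had estimates below 0. Of 11 genes of RNA handling and early stress response, 10 were below 0 with a median of -0.24 (-0.39 without wild-type piglet 5), and DNAJB1, FOS and HSPH1 were lower at an unadjusted p under 0.05. Of 7 sustentacular cell markers, 5 were below 0 with a median of -0.19, and KRT8 and KRT18 were lower at that p. In both lists edgeR called 0, and their part in the S phase values was not tested. The values of the S phase and mitosis lists stand side by side, and the difference between the lists was not tested.

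**Figure D5:**
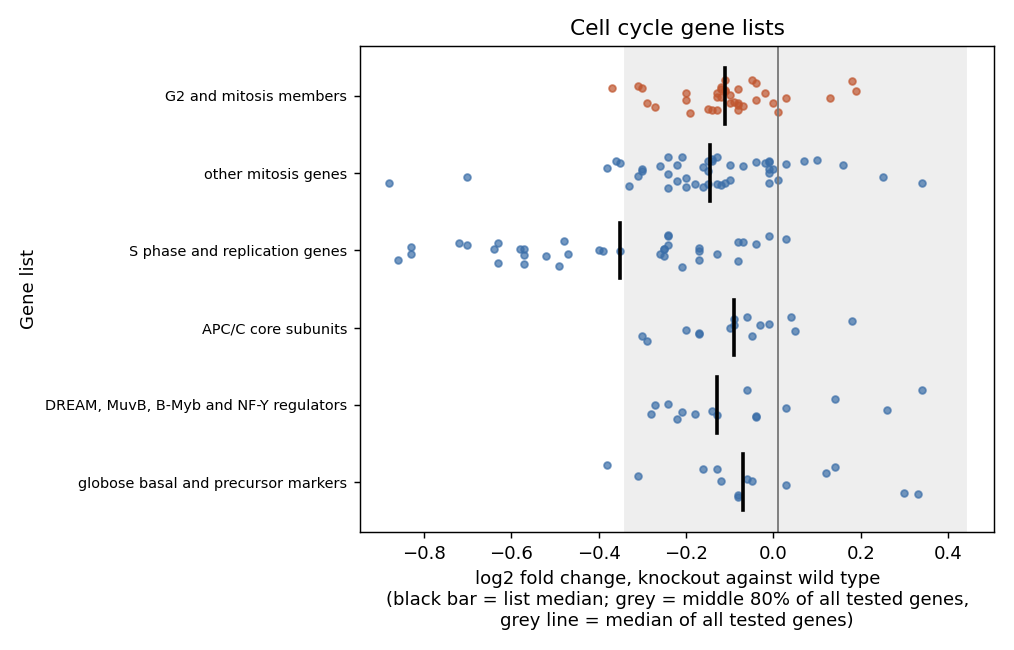
Log2 fold change (knockout against wild type, x axis) of every tested gene (points) in 6 lists (y axis), with each list's median as a black bar, the middle 80% of all 17175 tested genes as the grey band and their median (0.01) as the grey line. The mitosis genes (orange, median -0.11, 32 of 37 below 0) and the S phase genes (median -0.35, 36 of 37 below 0) both lie mostly to its left. The difference between the lists was not tested.

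Genes that regulate the programme also had medians below 0. Of the 15 core subunits of the anaphase-promoting complex, the ubiquitin ligase that destroys cyclin B, 12 were below 0 with a median of -0.09, and edgeR called 0. Those with an unadjusted p under 0.05 were ANAPC11, named by position (-0.30 ± 0.12), and CDC23 (-0.29 ± 0.12), both lower. Of 15 genes of the DREAM and MuvB complexes and of NF-Y, which silence or activate mitotic promoters, 11 were below 0 with a median of -0.13 and edgeR called 0. NFYA, the DNA-binding subunit of NF-Y, was 81.1, 86.9, 85.0 and 86.4 CPM in wild-type and 66.1, 74.7, 78.7 and 60.9 CPM in knockout piglets (-0.28 ± 0.09, edgeR adjusted p = 0.392), and E2F4, a repressor of resting cells, had -0.18 ± 0.07. In both genes all knockout values lay below all wild-type values, as in 3.35% of all genes.

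Of 5 inhibitors of cyclin-dependent kinases tested (CDKN1A, CDKN1B, CDKN1C, CDKN2C and CDKN2D), 4 were above 0, with a median of 0.12, and edgeR called 0. CDKN1B had the smallest p. CDKN1B (p27), which holds cells out of the cycle, was 118, 93.1, 114 and 117 CPM in wild-type and 137, 143, 126 and 127 CPM in knockout piglets. Every knockout value exceeded every wild-type value, as in 2.45% of all genes, at a log2 difference of 0.27 ± 0.09 (edgeR adjusted p = 0.405).

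Of the 37 members, 10 overlap the span of another gene, and the sources used here do not state whether strand was used in counting. CDC20 lies wholly within the span of ELOVL1 on the opposite strand, over 7832 bases. BUB1B shares 20893 bases of its span with PAK6 on the same strand, and NUSAP1 shares 10543 bases with OIP5 on the opposite strand. SMC4 shares 14137 bases with TRIM59 and NCAPG shares 3170 bases with LCORL, both on the opposite strand. The other members with an overlap are NDC80, KIF20A, FOXM1, TPX2 and AURKA. Overlap was measured over gene spans, not exons, and each neighbour of NDC80 held at most 11 reads over all libraries. The values of members with well-covered neighbours may therefore be less certain. MKI67, TOP2A, CCNB1 and CDK1 overlapped no other counted gene, though MKI67 was named by position.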

How the data were processed

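The authors deposited 1 table of raw counts per gene for all 8 libraries, with exon positions and gene lengths, per the file headers. The submitters' processing notes list STAR 2.4.0, featureCounts, Subread 1.5.0-p3, HTSeq, FastQC and DESeq2 without saying what each did. No source used here gives the genome build. Identifiers outside the pig genes (5988, at most 727 reads per library) were left out. Symbols came from a table of gene names for 14857 identifiers and, for 1622 more, from a RefSeq Sscrofa11.1 gene whose span overlapped by at least 50% both ways. Where both gave a symbol, 94.3% were the same.

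Counts were fitted with edgeR 4.0.16 in R 4.3.3 (quasi-likelihood test, TMM, default filter, genotype as the factor) over all genes, with Benjamini-Hochberg adjustment at 0.05. DESeq2 1.42.0 and limma 3.58.1 were alternatives, beside other scalings and filters, each piglet left out, and Y-linked reads as a factor. CPM were scaled by TMM, and TPM were computed from the lengths. The fit was tested on simulated data for this comparison (17175 genes, 50 changed at each size). There edgeR found 20% of the genes changed 1.5-fold, 52% of those changed 2-fold, 94% of those changed 4-fold and 100% of those changed 8-fold. False calls made up 6.99% of edgeR's calls and 25.4% of DESeq2's in the simulated data. These shares belong to data with that many changed genes. In the piglet libraries edgeR called 1 gene, and the share it would find with fewer changed genes was not tested.

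Members and gene lists were chosen with earlier results of these data known, so no list was tested. All 37 members are named. Full values are given for MKI67, TOP2A, CDK1 and CCNB1 and for up to 5 in each direction with the smallest p, and BUB3, AURKB and TTK were added after their values were seen. From the other lists up to 3 genes with the smallest p are named. PECAM1, KLF1, AHSP, NEUROG1, NEUROD1, TP63, CDCA3, the CDK inhibitors beside CDKN1B and KIFC1 and the remaining DESeq2 calls were added after their values were seen. P-values set the difference between genotypes against the spread between piglets.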

Additional observations from a re-analysis of the deposited data

Results flagged for a closer look

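In each group of 4 libraries, the highest and lowest value of every gene was compared with the rest, and 8 of 74 groups held a library far from the other 3 by Dixon's ratio at its 95% critical value. Chance flags about 1 in 20 groups, and genes of the list vary together. Wild-type piglet 5 was high in 4 genes. MKI67 was 108 CPM in it and 68.9 to 74.6 CPM in the other wild-type piglets, CCNB2 was 9.52 against 5.80 to 6.33 CPM, BUB1 was 15.4 against 9.45 to 10.4 CPM, and ANLN was 16.1 against 7.94 to 9.28 CPM. Knockout piglet 18 was high in 3 genes. BUB1B was 15.9 CPM in it and 12.1 to 12.5 CPM in the other knockout piglets, KIF20A was 15.0 against 11.2 to 11.6 CPM, and PLK1 was 8.02 against 7.26 to 7.38 CPM. INCENP was low in knockout piglet 6, at 19.9 CPM against 22.1 to 22.2 CPM. These 2 high libraries are those whose endothelial, fibroblast or bone markers also stood apart, and the part of those cells was not tested.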

How the results depend on the processing

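No G2 or mitosis gene was called under any of the 16 alternatives run, and the median log2 fold change over the 37 stayed below 0, from -0.20 with Y-linked reads as a second factor to -0.04 without wild-type piglet 5. The genotype difference in the fit with Y-linked reads rested on wild-type piglets 5 and 23 against the knockouts. The number of genes at an unadjusted p under 0.05 was 1 with all libraries in edgeR and in DESeq2, 5 with limma, and 4 with Y-linked reads as a factor. Dropping wild-type piglet 12 made it 5, dropping wild-type piglet 5 made it 3 and dropping knockout piglet 18 made it 2. It fell to 0 when knockout piglet 6, 20 or 21 was dropped. In the edgeR fit with all libraries, 11.2% of all genes were at that p, and the share under the other settings is not given here. The sign of single genes was less stable. With limma and sample quality weights CCNB2 was 0.00, FOXM1 0.12, BUB1B 0.08 and ECT2 0.01. With Y-linked reads as a factor TOP2A was -0.11, AURKB 0.02, KIF11 -0.15 and ANLN -0.06, and with upper quartile scaling KIF11 was -0.01. Without both wild-type piglet 5 and knockout piglet 18, CCNB2 was 0.06, FOXM1 0.08, MKI67 0.03, CENPE 0.03, BUB1 0.06, BUB1B 0.06, MAD2L1 0.01 and ECT2 0.05. Leaving out 1 piglet at a time, the range was -0.16 to 0.10 for CCNB2, -0.14 to 0.09 for FOXM1, -0.15 to 0.08 for MKI67, -0.06 to 0.23 for TOP2A, -0.21 to 0.02 for SMC2, -0.18 to 0.03 for CENPA, -0.18 to 0.08 for CENPE, -0.13 to 0.12 for BUB1, -0.10 to 0.16 for BUB1B, -0.19 to 0.01 for MAD2L1, -0.10 to 0.02 for AURKB, -0.08 to 0.21 for KIF11 and -0.14 to 0.06 for ECT2. Without wild-type piglet 5, 10 of the 37 changed sign; the cause was not tested.

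Among the other lists, DESeq2 called 7 S phase genes and 1 gene each among the globose basal, horizontal basal, leukocyte and RNA handling genes (PAX6, NGFR, ITGAM and HSPH1), and limma called 1 horizontal basal gene. Leaving out 1 piglet gave 0 to 2 edgeR calls for S phase genes and 0 to 1 for horizontal basal and mature neuron markers, the highest each time without wild-type piglet 12. The cause was not tested. For CFTR the range was -2.67 to -2.36, and the call was lost without knockout piglet 6 (-2.52) or 20 (-2.60). No paired analysis was possible because each piglet has 1 genotype and the labels name no litter or batch to pair by. Promoter sequences were not analysed here, so the comparison of promoter motifs was not run.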
